A study of Mus musculus with 12 samples.

Results

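The transcripts described here encode the subunits of the oxidative phosphorylation system, which lies in the inner mitochondrial membrane. They were chosen by gene name: the Nduf families of complex I, Sdha to Sdhd of complex II, the Uqcr genes and Cyc1 of complex III, the Cox families of complex IV, the Atp5 genes of complex V, and the mt- genes of the mitochondrial genome that encode subunits. The 8 names containing -ps, a mark of pseudogenes, were left out. This gave 101 genes of the 56980 gene IDs in the count table, 88 of them nuclear (40 of complex I, 4 of complex II, 9 of complex III, 17 of complex IV and 18 of complex V) and 13 mitochondrial (7 of complex I, 1 of complex III, 3 of complex IV and 2 of complex V).

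RNA sequencing was done on mouse bone marrow-derived macrophages, cultured for 7 days with conditioned medium of L929 cells. The genotype written RankCre-Regnaes3cKO (here cKO) was read as a conditional knockout of Regnase-3 (gene Zc3h12c) by a Cre named after Rank (gene Tnfrsf11a), and the other genotype was called wildtype (WT). Neither the strain nor the age of the mice is stated in the labels, and no control carrying Cre alone was described, so Cre and the deletion cannot be told apart. Cultures labelled M1 received 100 ng/ml of lipopolysaccharide together with 10 ng/ml of interferon-gamma, and cultures labelled M0 received neither. The 4 groups of 3 libraries were cKO_M1 (replicates 7, 8 and 9), WT_M1 (10, 11 and 12), cKO_M0 (1, 2 and 3) and WT_M0 (4, 5 and 6). Nothing in the labels says that replicates came from separate animals, so the p-values measure the spread between these libraries, which may be technical.

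Complexes I and II pass electrons from NADH and succinate to ubiquinone, complex III passes them on to cytochrome c, and complex IV passes them to oxygen. Complexes I, III and IV pump protons, and complex V uses the proton gradient to make ATP. Complex II is encoded by nuclear genes alone, while the other complexes join nuclear subunits with a small core encoded by mitochondrial DNA, so their assembly draws on both genomes. Macrophages stimulated with lipopolysaccharide and interferon-gamma are known for a shift of ATP production to glycolysis and for a changed use of succinate.

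Library totals lay between 41721452 and 42197986 counts. Zc3h12c had 109.6 ± 15.2 CPM in cKO_M1 and 176 ± 16.6 CPM in WT_M1 (SD, n = 3 each; log2 fold change -0.68, edgeR adjusted p = 0.00101), and 15.6 ± 2.57 CPM in cKO_M0 and 16.4 ± 0.773 CPM in WT_M0 (adjusted p = 0.8095). The counts cover the whole gene, so a deleted part could not be seen apart from the rest, and the extent of the deletion was not tested. CPM stands for counts scaled to the size of the library after TMM, a method that sets the bulk of genes level between libraries. The M1 stimulation markers summed to 15774 to 17291 CPM in cKO_M1 and 10565 to 12215 CPM in WT_M1, against 60.1 to 111 CPM in cKO_M0 and 56.2 to 77.4 CPM in WT_M0. The 7 macrophage markers summed to between 13992 and 18420 CPM in all libraries. Single markers were not as even: in M1 against M0, 4 of the 7 were higher and 2 lower in each genotype (edgeR adjusted p under 0.05). Of all tested genes 34.2% were higher in each genotype, and 36.0% (cKO) or 37.1% (WT) lower. B and plasma cell markers summed to 0.341 to 0.766 CPM in cKO_M1, 3.16 to 5.20 CPM in WT_M1, 32.9 to 62.4 CPM in cKO_M0 and 53.7 to 70.6 CPM in WT_M0; their part in the results below was not tested. Neutrophil markers summed to 7.30 to 16.2 CPM in cKO_M1 and 6.13 to 10.97 CPM in WT_M1, against 0.923 to 1.88 CPM in cKO_M0 and 0.979 to 2.60 CPM in WT_M0. This sum does not stand for each neutrophil marker. Of the 4 tested, 1 was higher and 1 lower in M1 in cKO, and 1 higher and 2 lower in WT. The sums of T and NK cell, erythroid and stromal markers stayed at or under 4.93 CPM in every library.

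Of the 101 genes, 95 passed the filter on low counts, 82 nuclear and 13 mitochondrial. Those left out were Cox7b2, Cox8b, Cox8c and a second gene ID of Atp5o, with 0 counts in every library, and Ndufa11b and Ndufa4l2, with 1 and 3 counts in all. The filter can keep a gene through the group in which it is high. Ndufa11b, Ndufb4c, Ndufs6b and Cox6c2 are annotated as processed pseudogenes. Exons of a gene on the other strand cover 35.6% of the exonic length of Atp5o and 39.0% of that of Ndufb6, and no source used here states whether the counting used the strand. Among the 82 nuclear genes tested, 51 shared no 100-base window with another annotated transcript and 13 shared at least 10% of their windows.

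The mitochondrial genes differed far more in this respect. Nuclear copies of mitochondrial DNA match part of them, and no source used here states how reads that match several places were treated. In the annotation used for this check (GENCODE M21, GRCm38), 99.5% of the 100-base windows of mt-Co2 occur also in a pseudogene on chromosome 1, 99.9% of those of mt-Co3, 99.5% of mt-Atp6, 98.5% of mt-Nd4l and 97.6% of mt-Nd3. For mt-Nd4 the share was 60.8%, for mt-Co1 30.8% and for mt-Nd2 3.19%, while mt-Nd1, mt-Nd5, mt-Nd6, mt-Cytb and mt-Atp8 shared none. With windows of 50 bases mt-Co1 had 51.1%, mt-Nd2 8.19% and mt-Nd5 7.61%. The stretches printed here show how close the copies are: the first 60 bases of mt-Co2 are identical in the copy Gm28661, while the copy Gm29216 of mt-Co1 begins inside that gene and is the same there but for the bases in capitals (positions 1054 to 1113 of mt-Co1 against 1 to 60 of the copy).
mt-Co1: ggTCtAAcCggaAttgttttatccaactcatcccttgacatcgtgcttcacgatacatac
Gm29216: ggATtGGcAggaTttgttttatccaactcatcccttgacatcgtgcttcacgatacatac
mt-Co2 and Gm28661: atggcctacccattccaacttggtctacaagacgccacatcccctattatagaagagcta
Over its whole alignment mt-Co2 matched Gm28661 without a mismatch for 681 bases, and from its position 1063 on mt-Co1 matched Gm29216 for 483 bases with 1 mismatch.

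The copied genes had the lower levels. The 5 genes copied over nearly their whole length had group means between 1.24 and 99.1 CPM per kilobase of gene length. The genes with shares of 60.8% or less had group means between 165 and 5898 CPM per kilobase, apart from mt-Atp8, which had 10.2 to 19.2 CPM per kilobase without an annotated copy. mt-Atp8 is 204 bases long, and 21.1% of its length overlaps mt-Atp6 on the same strand. Copies outside annotated transcripts were not searched for. The values of the 5 copied genes are therefore given apart from the others, but counts and medians over all mitochondrial genes include them. The part of the copies in these values was not tested.

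**Figure D1:**
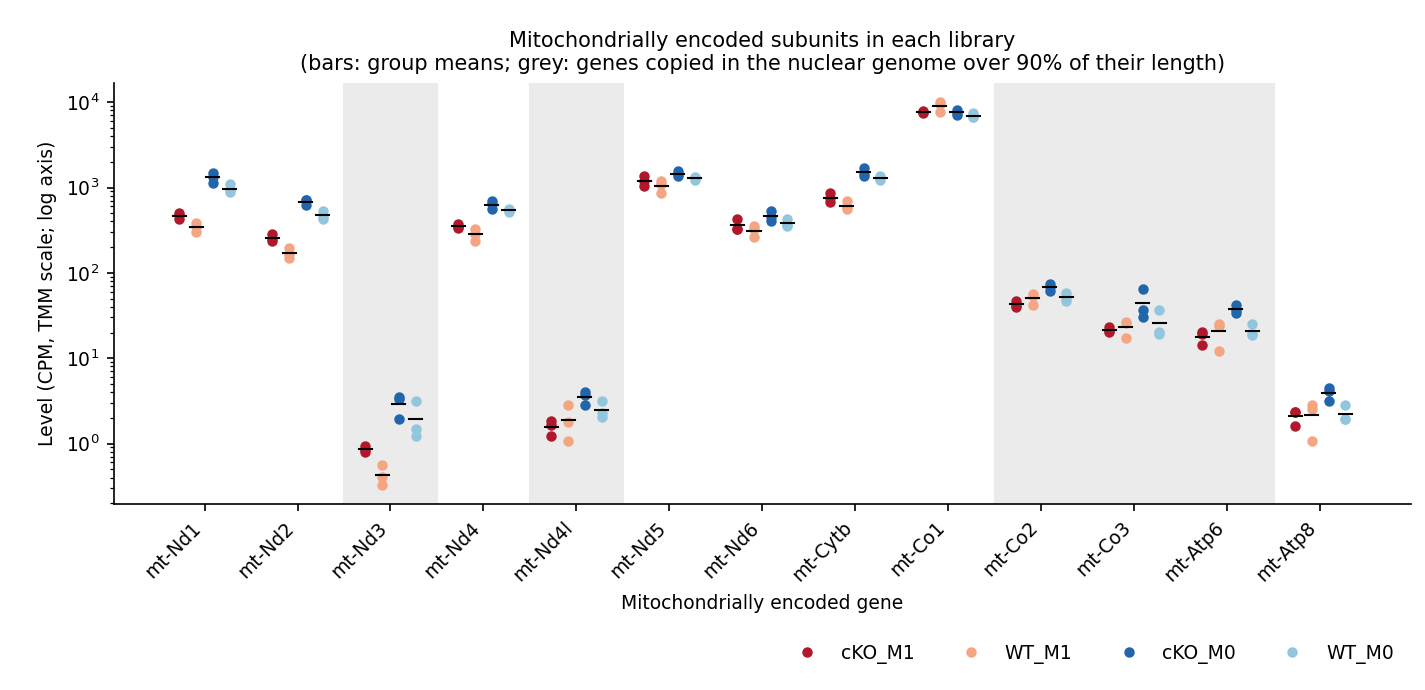
Level of each of the 13 mitochondrially encoded genes in every library, in CPM on the TMM scale (log axis); points are libraries, bars are group means, and grey bands mark the 5 genes copied in the nuclear genome over 97.6% or more of their 100-base windows. The M1 libraries of mt-Nd1, mt-Nd2, mt-Nd4 and mt-Cytb lie below the M0 libraries, while those of mt-Co1 do not.

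The first question was how the mitochondrial transcripts stood after M1 stimulation. Most subunits of complex I and the single subunit of complex III were lower in both genotypes, at 35.4% to 55.9% of the M0 level for mt-Nd1, mt-Nd2, mt-Nd4 and mt-Cytb, and mt-Co1 of complex IV was not. In cKO_M1 against cKO_M0, 12 of the 13 fell and 0 rose (edgeR quasi-likelihood test, adjusted p under 0.05, against 36.0% of the 15110 tested genes lower and 34.2% higher; 70.2% called in all). In WT_M1 against WT_M0, 6 fell and 1 rose (all tested genes: 37.1% lower, 34.2% higher, 71.4% called). The genes that fell in cKO alone were mt-Atp6, mt-Atp8, mt-Co2, mt-Co3, mt-Nd4l and mt-Nd6. All of them but mt-Atp8 and mt-Nd6 are copied nearly whole in the nuclear genome. Of the 13, only mt-Co2 and mt-Atp6 passed the test of the difference between the genotypes, which is given below. The median log2 fold change over the 13 was -0.99 in cKO and -0.29 in WT, beside -0.04 and -0.07 over all tested genes. These medians fall on different genes, mt-Cytb in cKO and mt-Nd5 in WT. The difference between the genotypes, taken gene by gene, had a median of -0.08 over the 13. Without WT_M1 replicate 12 the median in WT was -0.15.

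mt-Nd1, a core membrane subunit of complex I, had 476, 503 and 426 CPM in cKO_M1 and 386, 343 and 302 CPM in WT_M1, against 1475, 1126 and 1338 CPM in cKO_M0 and 1107, 928 and 882 CPM in WT_M0. Every M1 library lay below every M0 library. The log2 fold change was -1.49 in cKO (SE 0.12, edgeR adjusted p = 2.00e-08) and -1.50 in WT (SE 0.12, adjusted p = 1.78e-08). mt-Nd2, another membrane subunit of complex I, had 239, 283 and 249 CPM in cKO_M1 and 198, 168 and 148 CPM in WT_M1, against 708, 618 and 707 CPM in cKO_M0 and 535, 457 and 433 CPM in WT_M0. Again no M1 library reached an M0 library, with log2 fold changes of -1.40 in cKO (SE 0.11, adjusted p = 1.96e-08) and -1.47 in WT (SE 0.11, adjusted p = 1.11e-08).

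mt-Cytb encodes cytochrome b, the one subunit of complex III made in the mitochondrion. It had 747, 862 and 668 CPM in cKO_M1 and 693, 587 and 559 CPM in WT_M1, against 1686, 1364 and 1487 CPM in cKO_M0 and 1381, 1310 and 1229 CPM in WT_M0. The groups of the 2 states did not overlap, and the log2 fold change was -0.99 in cKO (SE 0.11, adjusted p = 8.10e-07) and -1.09 in WT (SE 0.11, adjusted p = 2.73e-07). mt-Nd4 fell with log2 fold changes of -0.84 in cKO (SE 0.11) and -0.93 in WT (SE 0.11), to 55.9% and 52.3% of the M0 level.

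The other complex I genes without a long copy, mt-Nd5 and mt-Nd6, moved less. mt-Nd5 had 1052, 1357 and 1194 CPM in cKO_M1 and 1192, 1086 and 872 CPM in WT_M1, against 1549, 1373 and 1432 CPM in cKO_M0 and 1345, 1281 and 1219 CPM in WT_M0. Its log2 fold changes of -0.27 in cKO (edgeR adjusted p = 0.0411) and -0.29 in WT (adjusted p = 0.0319) passed narrowly. In fits that left out 1 of the 12 libraries the call was lost in 5 for cKO and in 4 for WT. mt-Nd6 had 324 to 428 CPM in cKO_M1, 260 to 354 CPM in WT_M1, 404 to 532 CPM in cKO_M0 and 356 to 423 CPM in WT_M0. It passed in cKO (log2 fold change -0.36, adjusted p = 0.0276) and not in WT (-0.28, adjusted p = 0.0763). The call in cKO was lost without cKO_M0 replicate 1 or cKO_M1 replicate 7 or 9 (adjusted p up to 0.131).

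mt-Co1, the catalytic core subunit of complex IV, was the most abundant of the 13 transcripts. No other of the 13 was called higher in M1 with TMM, and mt-Co1 was so in WT alone. It had 7396, 7785 and 7577 CPM in cKO_M1 and 9644, 10072 and 7622 CPM in WT_M1, against 8175, 7155 and 7507 CPM in cKO_M0 and 7462, 6781 and 6695 CPM in WT_M0. In WT it was higher in each M1 library (log2 fold change 0.38, SE 0.10, adjusted p = 0.00257), whereas with library totals in place of TMM the sign turned to -0.20 (adjusted p = 0.0729). In cKO the M1 and M0 libraries overlapped (log2 fold change -0.01, SE 0.10, adjusted p = 0.968), and with library totals it passed as lower (-0.54, adjusted p = 1.27e-04).

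Of the 5 copied genes, mt-Nd3 had 0.792 to 0.937 CPM in cKO_M1, 0.331 to 0.557 CPM in WT_M1, 1.96 to 3.47 CPM in cKO_M0 and 1.24 to 3.15 CPM in WT_M0, and passed as lower in both genotypes (log2 fold change -1.76 in cKO and -2.17 in WT). mt-Co2, mt-Co3, mt-Atp6 and mt-Nd4l fell in cKO, by log2 fold changes of -0.65, -1.04, -1.09 and -1.15. In WT their log2 fold changes were -0.03, -0.14, -0.03 and -0.40, and none passed. mt-Atp8, a small subunit of complex V, had a log2 fold change of -0.91 in cKO (edgeR adjusted p = 0.00995) and -0.07 in WT (adjusted p = 0.834). The test of the difference between the genotypes did not pass for mt-Atp8 (adjusted p = 0.228), mt-Co3 (0.166) or mt-Nd4l (0.274).

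Ratios between mitochondrial genes of 1 library do not depend on the scaling. The count of mt-Co1 over that of mt-Cytb was 9.90, 9.03 and 11.3 in cKO_M1 and 13.9, 17.1 and 13.6 in WT_M1, against 4.85, 5.25 and 5.05 in cKO_M0 and 5.40, 5.18 and 5.45 in WT_M0. All M1 libraries lay above all M0 libraries, and the cKO_M1 libraries lay below the WT_M1 libraries. mt-Co1 over mt-Nd1 averaged 16.3 ± 1.32 in cKO_M1 and 26.5 ± 2.48 in WT_M1, against 5.84 ± 0.450 in cKO_M0 and 7.21 ± 0.432 in WT_M0 (SD, n = 3 each). mt-Co1 accordingly took 68.6% ± 1.67 of all counts on the 13 genes in cKO_M1 and 76.0% ± 1.49 in WT_M1, against 55.1% ± 0.911 in cKO_M0 and 58.0% ± 0.509 in WT_M0. Since 30.8% of the 100-base windows of mt-Co1 (51.1% of its 50-base windows) are copied in the nuclear genome, the size of each ratio depends on how such reads were counted.

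**Figure D2:**
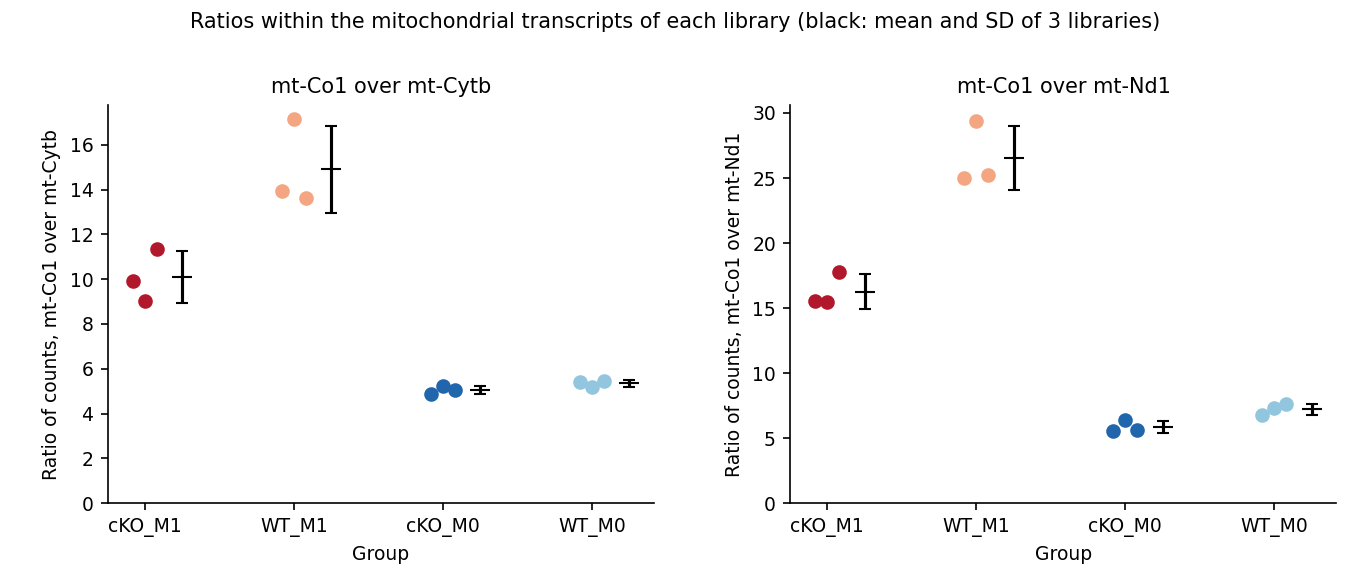
Ratio of the counts of mt-Co1 to those of mt-Cytb (left) and mt-Nd1 (right) in each library; coloured points are libraries, black bars the mean and SD of 3 libraries. The cKO_M1 libraries (9.03 to 11.3 over mt-Cytb) lie between the WT_M1 libraries and the M0 libraries.

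The nuclear subunits went the other way after M1 stimulation. On the TMM scale, 35 of the 82 rose and 7 fell in cKO_M1 against cKO_M0, and 43 rose and 4 fell in WT_M1 against WT_M0, beside 34.2% of all tested genes higher in each comparison; with library totals as the scale the same counts were 5 and 36 in cKO and 9 and 34 in WT, beside 18.4% of all tested genes higher and 57.5% lower in cKO and 18.3% and 59.6% in WT. Of the 35 that rose in cKO with TMM, 16 had a negative fold change with library totals and 4 passed as lower, and of the 43 in WT, 23 and 7. The median log2 fold change of the nuclear subunits was 0.24 in cKO and 0.37 in WT with TMM. Library totals moved the median of all tested genes by over 0.1, to -0.58 in cKO and -0.65 in WT, and the nuclear subunits are given against it. They stood above it by 0.28 in cKO and 0.44 in WT with TMM, and by 0.28 and 0.43 with library totals. The fold changes that follow are those with TMM. In bulk RNA, fewer cells expressing a gene and less RNA per cell cannot be told apart.

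Of the 35 nuclear subunits higher in cKO and the 43 higher in WT, 33 were shared, which is 94.3% and 76.7% of these lists. The matching shares over all tested genes are not given here. Neither this overlap nor the genes named next are therefore read as particular to the subunits. Cox5a, Cox6a2, Cox8a, Sdhb and Sdhd passed as higher in both genotypes under each of 3 scalings (TMM, the size factors of DESeq2 and library totals). Ndufb11, Cox7a1, Cox6b2 and Atp5g2 passed as lower in both genotypes under each of them, but Cox6b2 passed the low-count filter only through the M0 groups where it is high, so its call supports nothing here. The counts of nuclear subunits that fell include Cox6b2.

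**Figure D3:**
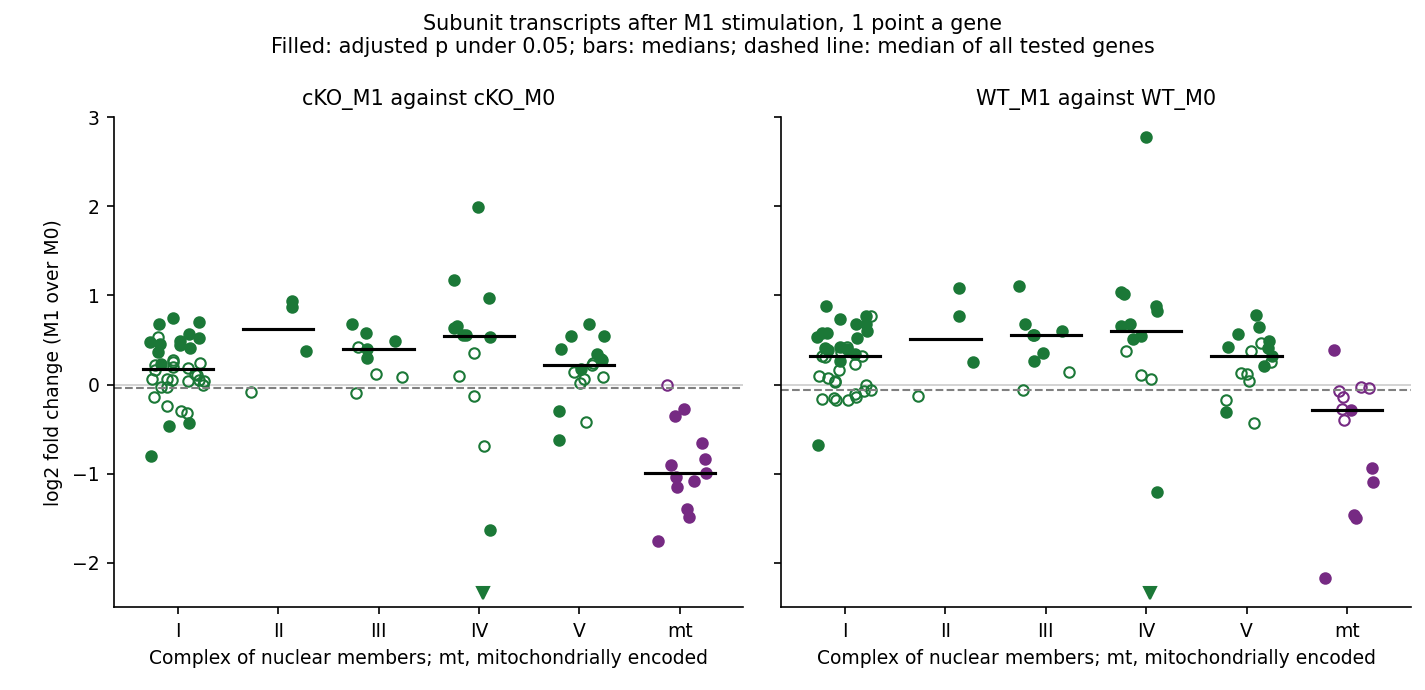
Log2 fold change of each tested subunit in M1 against M0, in cKO (left) and WT (right), by complex for the nuclear genes and together for the 13 mitochondrially encoded genes (mt); filled points passed at an adjusted p under 0.05, bars are medians, the dashed line is the median of all tested genes and a triangle marks Cox6b2, which lies below the axis. Nuclear medians lie above the dashed line in every complex on this scale, and the mitochondrial medians of -0.99 and -0.29 lie below it. The mitochondrial medians are the values of different genes, mt-Cytb in cKO and mt-Nd5 in WT.

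In complex II, 3 of 4 subunits rose in each genotype. Sdhb, the iron-sulfur subunit of succinate dehydrogenase, had 188, 158 and 141 CPM in cKO_M1 and 155, 160 and 153 CPM in WT_M1, against 88.3, 79.3 and 86.4 CPM in cKO_M0 and 79.3, 70.0 and 71.6 CPM in WT_M0. No M1 library overlapped with an M0 library, and the log2 fold change was 0.94 in cKO (SE 0.10, edgeR adjusted p = 3.11e-07) and 1.08 in WT (SE 0.10, adjusted p = 5.87e-08). Sdhd, a membrane anchor of the enzyme, had 154, 131 and 131 CPM in cKO_M1 and 118, 125 and 120 CPM in WT_M1, against 78.2, 72.6 and 76.7 CPM in cKO_M0 and 69.4, 70.9 and 72.0 CPM in WT_M0 (log2 fold change 0.87 in cKO and 0.77 in WT, SE 0.08 each). The other anchor gene, Sdhc, rose by 0.38 in cKO and 0.25 in WT, but with library totals it passed as lower (-0.16, adjusted p = 0.0485, and -0.33, adjusted p = 4.40e-04). Sdha, the flavoprotein that binds succinate, did not pass: it had 238, 247 and 251 CPM in cKO_M1 and 256, 263 and 241 CPM in WT_M1, against 252, 269 and 258 CPM in cKO_M0 and 265, 292 and 276 CPM in WT_M0, with log2 fold changes of -0.08 (adjusted p = 0.306) and -0.13 (adjusted p = 0.104). The 4 subunits of this enzyme thus spanned over 1 log2 unit in each genotype.

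In complex I, 12 of 38 nuclear subunits rose and 3 fell in cKO, and 16 rose and 1 fell in WT. The counts of each complex stand beside 34.2% of all tested genes higher in each genotype and 36.0% (cKO) or 37.1% (WT) lower, and the share of complex I that rose in cKO lay near that of all tested genes. Ndufs3, an iron-sulfur fragment subunit of the peripheral arm, had 74.1, 59.9 and 51.8 CPM in cKO_M1 and 51.1, 62.1 and 54.7 CPM in WT_M1, against 40.9, 33.9 and 41.1 CPM in cKO_M0 and 33.4, 29.1 and 28.6 CPM in WT_M0. Its M1 and M0 libraries did not overlap (log2 fold change 0.68 in cKO, SE 0.12, edgeR adjusted p = 1.55e-04, and 0.88 in WT, SE 0.13, adjusted p = 1.20e-05). Ndufa10, an accessory subunit, rose by 0.41 in cKO and 0.52 in WT, and had -0.13 and -0.059 with library totals. Ndufb11, an accessory subunit of the membrane arm encoded on the X chromosome, was the opposite case, with 28.7, 23.0 and 21.4 CPM in cKO_M1 and 23.6, 25.2 and 22.8 CPM in WT_M1, against 46.9, 35.2 and 45.7 CPM in cKO_M0 and 43.0, 34.5 and 37.3 CPM in WT_M0. It fell in both genotypes without overlap (log2 fold change -0.81 in cKO, adjusted p = 4.08e-05, and -0.68 in WT, adjusted p = 1.99e-04). The core catalytic subunits Ndufs1 and Ndufv1 did not pass in either genotype. Ndufs1 had log2 fold changes of -0.14 in cKO and -0.16 in WT, and Ndufv1 of -0.02 and 0.03.

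In complex III, 5 of 9 nuclear subunits rose in cKO and 7 in WT, and 0 fell with edgeR (at an unadjusted p under 0.05, 5 passed in cKO and 7 in WT). Cyc1, the heme-carrying cytochrome c1, had 100.4, 87.6 and 81.3 CPM in cKO_M1 and 68.5, 70.8 and 74.5 CPM in WT_M1, against 56.7, 58.1 and 65.9 CPM in cKO_M0 and 50.1, 49.3 and 45.5 CPM in WT_M0. Its states did not overlap, with log2 fold changes of 0.58 in cKO (SE 0.09) and 0.56 in WT (SE 0.09), although library totals gave 0.04 and -0.02. Uqcrq, a small accessory subunit, had 77.0, 47.4 and 40.6 CPM in cKO_M1 and 49.1, 61.3 and 47.3 CPM in WT_M1, against 37.7, 27.4 and 38.2 CPM in cKO_M0 and 29.0, 22.6 and 21.8 CPM in WT_M0. It rose by 0.67 in cKO (edgeR adjusted p = 0.00720) and 1.10 in WT (adjusted p = 1.55e-04), and in cKO the call was lost without cKO_M1 replicate 7 (adjusted p = 0.0630). The core proteins Uqcrc1 and Uqcrc2 differed: Uqcrc2 rose by 0.29 in cKO and 0.56 in WT, and Uqcrc1 did not pass (0.08 and 0.14). With library totals Uqcrc2 passed as lower in cKO (-0.24, adjusted p = 0.0232) and had -0.025 in WT.

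Complex IV held the largest nuclear changes in both directions, also with Cox6b2 set aside, and these lay in tissue-specific isoforms at low levels. Cox6a2, known as the heart and muscle form of subunit 6a, had 1.68, 1.90 and 1.81 CPM in cKO_M1 and 3.10, 3.70 and 3.28 CPM in WT_M1, against 0.581, 0.412 and 0.354 CPM in cKO_M0 and 0.782, 0.300 and 0.374 CPM in WT_M0. Cox6a2 rose by 1.99 in cKO (SE 0.31, edgeR adjusted p = 2.97e-05) and 2.78 in WT (SE 0.30, adjusted p = 5.14e-07), yet reached 2.64 CPM per kilobase in cKO_M1 and 4.94 in WT_M1, beside 292 and 263 CPM per kilobase of the ubiquitous form Cox6a1. Cox7a1, the heart and muscle form of subunit 7a, fell by 1.63 on the log2 scale in cKO and by 1.21 in WT, to 0.596 ± 0.125 CPM in cKO_M1 and 0.550 ± 0.0874 CPM in WT_M1, against 1.85 ± 0.112 CPM in cKO_M0 and 1.28 ± 0.401 CPM in WT_M0 (SD, n = 3 each). The widely expressed form Cox7a2 rose by 0.66 in cKO and 1.02 in WT, and Cox7a2l, which is known for joining complexes III and IV into supercomplexes, did not pass (-0.13 and 0.10). Cox6b2, known as the testis form, had 0 counts in each cKO_M1 library against 18, 10 and 14 counts in cKO_M0, which is at least 3.22-fold lower with a floor of 3 counts per library. In WT_M1 it had 0, 0 and 1 counts against 18, 8 and 16 counts in WT_M0, a ratio of 0.0356 with an exact 95% interval of 0.000881 to 0.210 that covers counting error only.

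Of the 14 tested nuclear genes that the name rule put in complex IV, 8 rose and 2 fell in cKO, and 9 rose and 2 fell in WT. Isoforms and the processed pseudogene Cox6c2 are included. The 2 that fell were Cox7a1 and Cox6b2 in each, and the call of Cox6b2 supports nothing. Cox8a, a small membrane subunit, had 225, 183 and 174 CPM in cKO_M1 and 161, 170 and 176 CPM in WT_M1, against 93.5, 80.5 and 84.8 CPM in cKO_M0 and 83.7, 82.3 and 81.3 CPM in WT_M0. All M1 libraries lay above all M0 libraries, and the log2 fold change was 1.17 in cKO (SE 0.09, edgeR adjusted p = 1.84e-08) and 1.04 in WT (SE 0.09, adjusted p = 7.36e-08). Cox5a, a subunit on the matrix side, had 139, 130 and 126 CPM in cKO_M1 and 127, 122 and 129 CPM in WT_M1, against 66.5, 64.2 and 71.2 CPM in cKO_M0 and 71.3, 66.6 and 67.9 CPM in WT_M0 (log2 fold change 0.97 in cKO and 0.88 in WT, SE 0.07 each). Its M1 libraries did not overlap with its M0 libraries either.

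Ndufa4, named after complex I and since assigned to complex IV, was counted above under complex I by its name. It had 66.8, 43.7 and 43.6 CPM in cKO_M1 and 41.7, 48.4 and 45.8 CPM in WT_M1, against 80.6, 53.7 and 78.8 CPM in cKO_M0 and 64.8, 43.3 and 45.3 CPM in WT_M0. It passed as lower in cKO (log2 fold change -0.47, edgeR adjusted p = 0.0357) and not in WT (-0.17, adjusted p = 0.418), and its libraries overlapped between M1 and M0 in both. Its paralogue AA467197, the mouse counterpart of human C15orf48, is known to take the place of NDUFA4 in complex IV during inflammation. AA467197 had 60.4, 36.6 and 34.1 CPM in cKO_M1 and 47.9, 42.5 and 51.6 CPM in WT_M1, against 1.98, 1.14 and 1.98 CPM in cKO_M0 and 1.33, 0.919 and 0.886 CPM in WT_M0. It rose by 4.68 in cKO (SE 0.24) and 5.50 in WT (SE 0.26), more than any tested member of the name rule.

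In complex V, 7 of 17 nuclear subunits rose and 2 fell in cKO, and 8 rose and 1 fell in WT. Atp5b, the catalytic beta subunit of the ATP synthase, had 1083, 1016 and 956 CPM in cKO_M1 and 942, 1038 and 934 CPM in WT_M1, against 612, 619 and 683 CPM in cKO_M0 and 549, 605 and 537 CPM in WT_M0. The M1 libraries all lay above the M0 libraries, with log2 fold changes of 0.67 in cKO (SE 0.08, edgeR adjusted p = 2.26e-06) and 0.78 in WT (SE 0.08, adjusted p = 3.94e-07). Its partner in the catalytic hexamer, Atp5a1, hardly moved: it had 596, 580 and 562 CPM in cKO_M1 and 528, 530 and 543 CPM in WT_M1, against 507, 502 and 527 CPM in cKO_M0 and 515, 540 and 498 CPM in WT_M0. Its log2 fold change of 0.18 passed in cKO (adjusted p = 0.0274), and that of 0.04 in WT did not (adjusted p = 0.569). With library totals it passed as lower in cKO (-0.36, adjusted p = 1.47e-04).

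Of the 3 genes that encode the same mature c subunit of the rotor ring, Atp5g3 differed in direction from the others with TMM. Atp5g3 rose by 0.35 in cKO and 0.21 in WT, Atp5g2 fell by 0.62 in cKO and 0.31 in WT, and Atp5g1 passed as lower in cKO alone (log2 fold change -0.30 in cKO and -0.18 in WT). With library totals Atp5g3 had -0.19 in cKO (adjusted p = 0.0517) and passed as lower in WT (-0.37, adjusted p = 8.68e-04). Atp5g1 and Atp5g2 passed as lower in both genotypes on that scale. Atp5g2 shares 34.7% of its windows with the pseudogenes Gm10175 and Gm10231. Atpif1, which encodes the inhibitor of the ATP synthase and is not a subunit by the name rule, had 14.3, 9.79 and 9.14 CPM in cKO_M1 and 11.03, 12.5 and 11.3 CPM in WT_M1, against 44.0, 29.6 and 40.3 CPM in cKO_M0 and 35.1, 26.7 and 21.6 CPM in WT_M0. It fell without overlap, by 1.78 on the log2 scale in cKO and by 1.26 in WT.

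Ranked by level per length, the leading nuclear subunits in WT_M0 were Cox6a1 at 185 ± 4.52, Atp5a1 at 165 ± 6.74, Cox8a at 133 ± 1.92 and Atp5b at 133 ± 8.51 CPM per kilobase (SD, n = 3), the last pair within their spread of each other. In cKO_M1 the order was Cox8a at 313 ± 43.9, Cox6a1 at 292 ± 20.5 and Atp5b at 240.3 ± 14.96 CPM per kilobase, where the first pair lay within their spread. The median tested nuclear subunit had 30.9 CPM per kilobase in cKO_M1, 29.0 in WT_M1, 27.9 in cKO_M0 and 21.6 in WT_M0. mt-Co1, at 4910 CPM per kilobase in cKO_M1 and 5898 in WT_M1, stood far above all of them.

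The promoters of the nuclear subunits were searched for words of 3 factors known to act on respiratory genes. In RefSeq promoters (GRCm38.p6; 250 bases before to 50 after the start), found by symbol for 66 of the tested nuclear genes, the NRF1 word (GCGCA, any base, then GCGC) on either strand was in 25.8%, against 11.3% of 10304 tested genes with a promoter. The ETS word CCGGAAG, which GABPA can bind, was in 24.2% against 20.1%, and the YY1 word AAGATGGCG in 10.6% against 3.52%. At least 1 of the 3 was in 51.5%, against 31.0%, while the CCAAT word was in 43.9%, against 43.0%. Among the subunits that passed in both genotypes under each scaling, Cox5a rose and had none of the 3 words. Atp5g2 fell and had an NRF1 word, while Ndufb11 fell and had none. A link between the words and the direction of change was not tested. The promoters of 3 subunits picked from those that rose and of 1 from those that fell are shown, on the strand of the gene, with the words found in capitals.
Sdhb, chr4:140961021-140961320, plus strand, with an ETS word: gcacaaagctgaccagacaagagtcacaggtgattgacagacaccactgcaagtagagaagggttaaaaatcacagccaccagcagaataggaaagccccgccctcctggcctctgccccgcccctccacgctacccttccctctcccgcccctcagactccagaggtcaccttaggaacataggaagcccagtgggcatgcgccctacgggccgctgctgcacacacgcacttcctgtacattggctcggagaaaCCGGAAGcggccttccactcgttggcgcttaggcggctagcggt
Sdhd, chr9:50603800-50604099, minus strand, with an NRF1 word and an ETS word: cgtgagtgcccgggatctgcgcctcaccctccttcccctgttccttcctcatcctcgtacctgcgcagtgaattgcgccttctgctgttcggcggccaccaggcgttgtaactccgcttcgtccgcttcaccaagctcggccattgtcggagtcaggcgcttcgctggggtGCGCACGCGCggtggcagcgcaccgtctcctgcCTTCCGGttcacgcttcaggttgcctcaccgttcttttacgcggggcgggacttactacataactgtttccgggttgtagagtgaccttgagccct
Cox8a, chr19:7217567-7217866, minus strand, with 2 ETS words: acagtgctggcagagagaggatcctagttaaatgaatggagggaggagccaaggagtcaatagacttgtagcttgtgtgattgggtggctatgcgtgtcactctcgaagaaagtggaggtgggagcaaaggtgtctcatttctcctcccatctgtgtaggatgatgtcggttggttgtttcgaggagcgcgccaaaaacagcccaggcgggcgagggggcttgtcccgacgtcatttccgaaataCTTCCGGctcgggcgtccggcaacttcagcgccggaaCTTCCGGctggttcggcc
Cox7a1, chr7:30183921-30184220, plus strand, with none of the 3 words: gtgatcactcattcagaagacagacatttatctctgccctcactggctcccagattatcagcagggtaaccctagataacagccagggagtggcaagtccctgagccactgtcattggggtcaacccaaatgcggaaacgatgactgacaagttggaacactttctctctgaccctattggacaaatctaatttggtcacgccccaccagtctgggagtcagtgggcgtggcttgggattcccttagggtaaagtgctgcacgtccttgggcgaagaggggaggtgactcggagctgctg
A match is a description of the letters and does not show that a factor binds there.

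Libraries of 1 group differed in the nuclear subunits as a whole. cKO_M1 replicate 7 was the highest of its group for 76 of the 82 nuclear genes tested and the highest of all 12 libraries for 60, and cKO_M0 replicate 2 was the lowest of its group for 72. Summed nuclear levels were 7621, 6396 and 6003 CPM in cKO_M1 and 5976, 6448 and 6071 CPM in WT_M1, against 5469, 4830 and 5564 CPM in cKO_M0 and 4940, 4679 and 4509 CPM in WT_M0. Without replicate 7 the nuclear median of cKO_M1 against cKO_M0 was 0.06 in place of 0.24, with 25 genes higher and 10 lower. As a share of the library total, the nuclear subunits took 0.560% ± 0.0691 in cKO_M1, 0.498% ± 0.0120 in WT_M1, 0.644% ± 0.0525 in cKO_M0 and 0.570% ± 0.0316 in WT_M0 (SD, n = 3 each). The mitochondrial subunits took 0.929% ± 0.0450 in cKO_M1, 0.967% ± 0.129 in WT_M1, 1.68% ± 0.157 in cKO_M0 and 1.46% ± 0.111 in WT_M0.

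**Figure D4:**
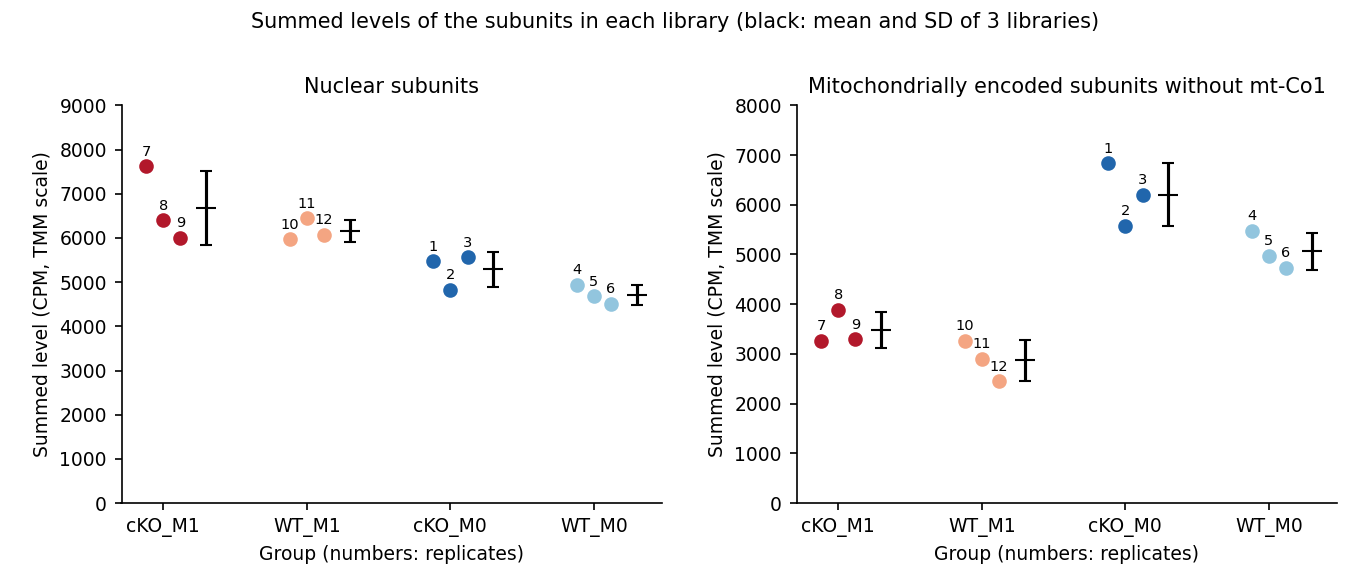
Summed level of the nuclear subunits (left) and of the mitochondrially encoded subunits without mt-Co1 (right) in each library, in CPM on the TMM scale; numbers are replicates, black bars the mean and SD of 3 libraries. Replicate 7 of cKO_M1 stands above the other M1 libraries on the left (7621 CPM) and not on the right (3266 CPM).

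The second question was whether cKO macrophages differed from WT macrophages. In M1, 2 of the 13 mitochondrial subunits were higher in cKO and 0 lower, and 2 of the 82 nuclear subunits were higher and 1 lower, beside 8.98% of all tested genes higher and 9.67% lower (18.6% called). The mitochondrial pair was mt-Nd2 (log2 fold change 0.58, SE 0.11, edgeR adjusted p = 0.00231) and mt-Nd1 (0.45, SE 0.12, adjusted p = 0.0164), whose cKO_M1 libraries given above all exceeded the WT_M1 libraries. mt-Nd2 passed in all 12 fits without 1 library, and mt-Nd1 was lost in 4 of them, without cKO_M1 replicate 7 or 8 or WT_M1 replicate 11 or 12 (adjusted p up to 0.101). mt-Nd4 had 346, 374 and 336 CPM in cKO_M1 and 329, 282 and 234 CPM in WT_M1 and missed the threshold (0.32, adjusted p = 0.0567), as did mt-Cytb (0.31, adjusted p = 0.0637). mt-Co1 pointed the other way without passing (-0.26, adjusted p = 0.0755).

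The nuclear genes that differed in M1 were Cyc1, which was higher in cKO (log2 fold change 0.33, SE 0.09, edgeR adjusted p = 0.0168), Atp5d, the delta subunit of the ATP synthase (0.23, SE 0.08, adjusted p = 0.0434), and Cox6a2, which was lower (-0.90, SE 0.27, adjusted p = 0.0295). Atp5d had 154, 161 and 151 CPM in cKO_M1 and 123, 133 and 141 CPM in WT_M1. None of the 3 passed without cKO_M1 replicate 7, and fits without 1 library lost Cyc1 in 3 of 12 (also without WT_M1 replicate 10 or 11), Cox6a2 in 6 (without any of the M1 libraries) and Atp5d in 9 (all but those without WT_M0 replicate 5, cKO_M1 replicate 9 or WT_M1 replicate 12). Atp5d also did not pass with the size factors of DESeq2, without the low-count filter or with the groups compared alone, and Cyc1 did not with the groups compared alone. The nuclear median was 0.14 beside 0.02 for all genes, and it was -0.03 without replicate 7.

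In M0, 1 mitochondrial subunit was higher in cKO and no nuclear subunit passed in either direction, beside 0.662% of all tested genes higher and 0.953% lower (1.61% called). The gene that passed was again mt-Nd2 (log2 fold change 0.51, SE 0.11, edgeR adjusted p = 0.0422), and it was lost in 9 of 12 fits without 1 library, all but those without cKO_M1 replicate 7 or 9 or WT_M1 replicate 11 (adjusted p up to 0.258). All 13 mitochondrial genes had a positive log2 fold change, with a median of 0.43, and so did 75 of the 82 nuclear genes, with a median of 0.22, while 51.0% of all tested genes did. Of the nuclear genes, 29 of 82 had an unadjusted p under 0.05, beside 18.6% of all tested genes. DESeq2 called 3 of 78 with an adjusted p, beside 6.98% of all genes, and edgeR without the low-count filter called 24 of 84, beside 4.3%. The nuclear genes nearest to passing were Cyc1 (0.32, adjusted p = 0.0835) and Cox7a2 (0.63, adjusted p = 0.102), where Cox7a2 had 46.9, 35.02 and 46.2 CPM in cKO_M0 and 33.4, 25.2 and 24.3 CPM in WT_M0. Neither Cox7a2 nor Cyc1 overlapped between the genotypes in M0, but they were picked by their small p, so this adds no support.

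**Figure D5:**
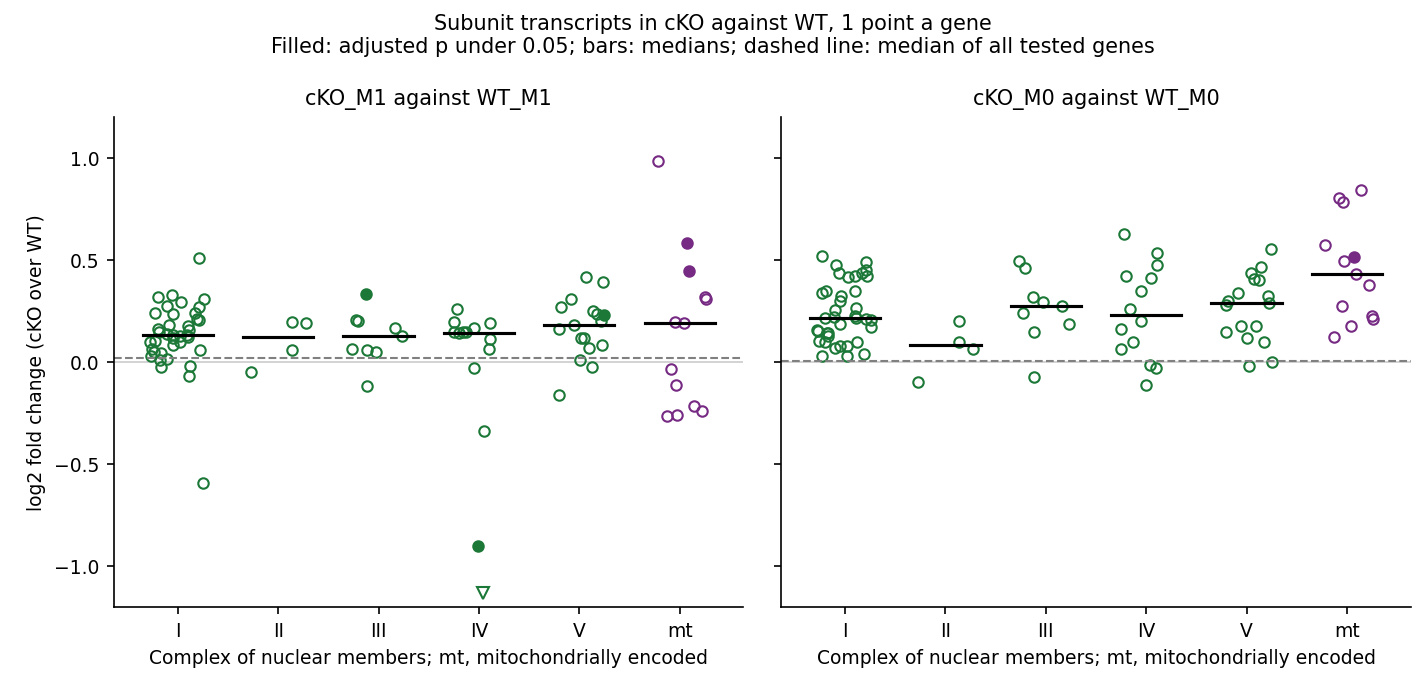
Log2 fold change of each tested subunit in cKO against WT, in M1 (left) and M0 (right), by complex for the nuclear genes and together for the 13 mitochondrially encoded genes (mt); filled points passed at an adjusted p under 0.05, bars are medians, the dashed line is the median of all tested genes and the open triangle marks Cox6b2, which has at most 1 count in a library of M1. Few points are filled, and most points of the M0 panel lie above 0.

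The difference between the genotypes in their response to M1 was tested as an interaction. Of the nuclear subunits 0 passed with edgeR (1 at an unadjusted p under 0.05, beside 23.9% of all genes, and 3 without the low-count filter, beside 7.17%), and of the mitochondrial subunits 2 passed as more negative in cKO, beside 4.14% of all tested genes lower and 4.02% higher (8.16% called). These were mt-Co2 (log2 difference -0.62, SE 0.17, adjusted p = 0.0335) and mt-Atp6 (-1.06, SE 0.30, adjusted p = 0.0446). Both belong to the genes copied almost whole in the nuclear genome, and their calls were lost in 8 (mt-Co2) and 9 (mt-Atp6) of 12 fits without 1 library. Both held without WT_M0 replicate 4, cKO_M1 replicate 9 or WT_M1 replicate 12, and mt-Co2 also without cKO_M0 replicate 2. mt-Nd1 and mt-Nd2 had fold changes for M1 against M0 that were close in cKO and WT, and their interactions did not pass.

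Other genes of the pathway were read from lists, with TMM and for M1 against M0 unless another comparison is named. Their counts stand beside 34.2% of all tested genes higher in each genotype and 36.0% (cKO) or 37.1% (WT) lower, and library totals gave fewer rises and more falls in most lists. Of the 6 tested subunits that the name rule misses, 5 rose in each genotype, among them Cycs, the somatic cytochrome c (log2 fold change 1.30 in cKO and 1.71 in WT), and Higd1a (1.08 and 0.91). Of 19 tested complex IV assembly factors, 8 rose and 2 fell in each genotype, led by Coa5 (2.22 and 2.23) and the copper chaperone Sco1 (1.55 each). Of 14 complex I assembly factors, 1 rose and 7 fell in cKO and 2 rose and 6 fell in WT, with Ndufaf7, a methyltransferase, at -1.77 and -1.87. Of the 4 assembly factors of complex II, 1 rose and 1 fell in each genotype. Of the 6 of complex III, 1 rose in cKO alone and 1 fell in each genotype, and of the 4 of complex V, 1 fell in each.

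Of 15 genes of mitochondrial DNA transcription and replication, 2 rose and 9 fell in each genotype. Tfam, which packs and transcribes mitochondrial DNA, had 13.4, 10.9 and 10.9 CPM in cKO_M1 and 11.2, 10.9 and 9.91 CPM in WT_M1, against 23.0, 21.4 and 23.2 CPM in cKO_M0 and 21.0, 17.3 and 20.1 CPM in WT_M0. It fell by 0.94 on the log2 scale in cKO and by 0.87 in WT without overlap. Twnk, the mitochondrial helicase, had 4.09, 4.40 and 4.24 CPM in cKO_M1 and 2.11, 2.46 and 3.40 CPM in WT_M1 and was higher in cKO (log2 fold change 0.67, edgeR adjusted p = 0.00887), with an interaction of 0.80 (adjusted p = 0.0344). Of 15 tested genes of mitochondrial RNA processing and stability, 2 rose and 7 fell in cKO and 5 rose and 5 fell in WT. Lrpprc, which stabilises mitochondrial mRNA, fell by 0.96 in cKO and by 1.11 in WT.

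Among 7 tested regulators of respiratory genes, Ppargc1b and Esrra rose in both genotypes (log2 fold changes of 2.58 and 2.63, and of 1.79 and 1.46, in cKO and WT). Myc fell by 2.78 in cKO and by 1.64 in WT, with an interaction of -1.14 (edgeR adjusted p = 0.0195), while Nrf1 did not pass in either. Ppargc1a had at most 0.0879 CPM in a library. Of 77 mitochondrial ribosomal protein genes, 8 rose and 27 fell in cKO and 15 rose and 19 fell in WT, and with library totals 2 rose and 66 fell in cKO and 2 rose and 59 fell in WT. The share that fell in cKO with TMM lay near that of all tested genes. The mitochondrial ribosomal RNAs mt-Rnr1 and mt-Rnr2 rose in WT (0.65 and 0.61; 0.06 and 0.02 with library totals, not passing) and did not pass in cKO, and mt-Rnr1 was lower in cKO_M1 than in WT_M1 (log2 fold change -0.64, adjusted p = 0.0148). Of 14 genes of the tricarboxylic acid cycle, 5 rose and 5 fell in cKO and 7 rose and 5 fell in WT, with Idh2, the mitochondrial NADP-dependent isocitrate dehydrogenase, lowest at -2.78 and -2.83.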

How the data were processed

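RNA of 12 libraries was analysed, and every library was used. The values deposited by the authors were raw counts per gene, with a gene length in bases per the file headers. The tools named per the submitters' processing notes were featureCounts 2.0.3, HISAT2 2.2.1, SAMtools 1.16.1 and Trimmomatic 0.39, with the build GRCm39. Strand, multi-mapping and read-pair options are not given in the sources used. Of the values from 1 to 10, 60.9% were even, so halved counts were an alternative. Symbols came from a reference table for 52073 of 56980 IDs; the other 4907 stayed in the tests. Reference transcripts and promoters were of another build, GRCm38, and gave names, sequence and copied windows only.

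Genes were kept by filterByExpr (minimum count 10, minimum total 15), which left 15110. One model with a mean per group was fitted with edgeR 4.0.16 in R 4.3.3 (TMM, quasi-likelihood F-test, Benjamini-Hochberg over all tested genes). The contrasts were cKO against WT in M1 and M0, M1 against M0 in cKO and WT, and the interaction. Adjusted p-values in the text are edgeR's. DESeq2 1.42.0, other scalings, no filter, the groups compared alone and leaving out each library were alternatives. The scripts were tested on simulated data. Log2 fold changes have a standard error taken from the F statistic.

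The members and the 19 lists were chosen with earlier results of these data known. Genes named were all mitochondrial and complex II members, up to 4 nuclear members with the smallest p per complex and comparison, isoforms, and up to 4 genes per list; Atp5a1, Ndufs1, Ndufv1, Uqcrc1, Nrf1 and Ppargc1a were named, and several genes given per library, after their values were seen. Some results are not reported here.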

Additional observations from a re-analysis of the deposited data

Results flagged for a closer look

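The mitochondrial genes mt-Co2 and mt-Atp6 differed between the genotypes in their response to M1 stimulation. mt-Co2 had 40.3, 42.4 and 46.7 CPM in cKO_M1 and 56.5, 54.2 and 42.1 CPM in WT_M1, against 68.3, 61.1 and 74.0 CPM in cKO_M0 and 58.6, 51.02 and 46.7 CPM in WT_M0, with an interaction of -0.62 on the log2 scale (edgeR adjusted p = 0.0335; 0.000320 to 0.0986 over the alternatives). mt-Atp6 had 14.1, 19.0 and 20.1 CPM in cKO_M1 and 25.5, 24.1 and 12.2 CPM in WT_M1, against 42.1, 37.0 and 33.9 CPM in cKO_M0 and 25.2, 19.2 and 18.6 CPM in WT_M0, with an interaction of -1.06 (adjusted p = 0.0446; 4.71e-09 to 0.121 over the alternatives). In both genes 99.5% of the 100-base windows occur also in a nuclear copy, and the part of reads that match several places in these values was not tested. The copies held counts of their own. Gm10925, the copy of mt-Atp6, had 677 to 2747 counts per library and more than mt-Atp6 in every library. Gm28661, the copy of mt-Co2, had 1041 to 2743 counts per library and fewer than mt-Co2 in every library.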

How the results depend on the processing

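No paired analysis was possible because no replicate number is shared between groups. Counts of called subunits that moved by over 1.5 times were, for nuclear subunits of cKO_M0 against WT_M0, 24 without the low-count filter and 3 with DESeq2 in place of 0. For mitochondrial subunits of that comparison they were 6 without the filter, 4 with DESeq2, and 2 with the groups compared alone or with halved counts, in place of 1. For cKO_M1 against WT_M1 the nuclear count of 3 became 9 with library totals and 1 with the groups compared alone, and the mitochondrial count of 2 became 4 with library totals or DESeq2 and 6 without the filter. The 7 mitochondrial calls of WT_M1 against WT_M0 became 11 with library totals. In the interaction, the nuclear count of 0 became 3 without the filter, and the mitochondrial count of 2 became 1 with library totals and 4 without the filter. The cause was not tested. Leaving out 1 library at a time, with the spread pooled over groups, gave 35 to 45 nuclear and 10 to 12 mitochondrial calls in cKO_M1 against cKO_M0, and 42 to 53 and 6 to 9 in WT_M1 against WT_M0. The ranges were 0 to 6 and 1 to 4 in cKO_M1 against WT_M1, 0 to 2 and 0 to 2 in cKO_M0 against WT_M0, and 0 to 1 and 0 to 4 in the interaction.

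Whether TMM or library totals is the better scale was not tested. With library totals the direction turned in cKO_M1 against cKO_M0 for 16 nuclear subunits called higher (4 then passed as lower), among them Sdhc (-0.16), Ndufa10 (-0.13), Ndufs7 (-0.088), Ndufa11 (-0.057), Uqcrfs1 (-0.14), Uqcr10 (-0.045) and Atp5g3 (-0.19). In WT_M1 against WT_M0 it turned for 23 nuclear subunits (7 then passed as lower) and mt-Co1 (-0.20), among them Sdhc (-0.33), Ndufa10 (-0.059), Ndufa11 (-0.046), Cyc1 (-0.023), Uqcrc2 (-0.025), Atp5d (-0.27) and Atp5f1 (-0.10).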
